A study of Drosophila melanogaster with 8 samples.

Results

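HP1a is the founding heterochromatin protein of Drosophila, the gene product targeted by the RNA interference of this study. It binds histone H3 methylated at lysine 9 through its chromodomain, pairs with itself through its chromoshadow domain, and coats the repeat-rich chromatin around centromeres. Away from the centromeres it also occupies scattered sites in the gene-rich chromosome arms, and the passage from pericentric heterochromatin to euchromatin lies toward the base of each arm. The centromere-proximal HP1 domains described here are those listed by the authors at the base of 4 arms. They were taken by position only, as every domain starting at or beyond 20000000 on 2L, 20900000 on 3L and 20400000 on X, or ending at or before 2000000 on 3R, where the centromere lies at the low end of the coordinates. There are 378 of them in a list of 4467: 101 on 2L, 67 on 3L, 89 on 3R and 121 on X. The remaining 3341 domains of the same 4 arms are the comparison, and the 748 domains of 2R enter neither group.

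Binding was mapped by DamID, in which a DNA adenine methylase fused to the protein marks GATC sites near its binding places. The 4 DamID samples were 2 of Dam-HP1 and 2 of Dam only, from ovaries of females aged 0 to 4 days that were offspring of hsp70-FLP crossed to STOP#1-Dam-HP1 or STOP#1-Dam. Per the labels, 160 to 200 ovaries went into each sample, which was sequenced with single 100 nt reads to a depth of about 30 M. The list holds positions in steps of 500 bp on dm3 and no value for a sample, so the spread between the 2 replicates of a group cannot be given for any domain. The RNA samples were 2 control libraries (tj-Gal4 crossed to #60000 (VDRC)) and 2 HP1-SKD libraries (tj-Gal4 crossed to HP1a RNAi), all with the tj-Gal4 driver, which is active in somatic cells of the ovary. They were made from about 100 whole ovaries each, of females aged 0 to 4 days, and held between 18671641 and 38330975 counts.

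The base of an arm was richer in HP1 domains than the rest of the arm on 2L, 3R and X, and not on 3L. On 2L, 27.2% of the 2000.5 kb between the edge and the last listed domain lay inside domains, against 11.4% of the rest of the arm, a ratio of 2.39. On 3R the shares were 22.6% and 11.6%, a ratio of 1.95. On X they were 21.6% and 15.1%, a ratio of 1.42. On 3L the order was the other way, with 10.1% against 13.3%, a ratio of 0.755. Over the 4 arms together, 20.4% of the proximal 8023.5 kb lay in domains, against 12.8% elsewhere, and the difference of 7.58 percentage points was smaller than its SD over the 4 arms (8.16). No p-value goes with these comparisons, because both groups of domains come from a single call list, neighbouring domains are not independent, and the arms share the same libraries.

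More domains and longer domains both went into that difference. The proximal windows held 50.5 domains per Mb on 2L against 34.2 in the rest of the arm, 44.5 against 34.2 on 3R, 59.8 against 47.2 on X and 33.5 against 38.7 on 3L. Mean length was 5396 bp against 3334 bp on 2L and 5084 bp against 3384 bp on 3R. It was 3603 bp against 3208 bp on X, and 3007 bp against 3445 bp on 3L. X therefore had the most closely packed domains, both in the window and in the rest of the arm. The proximal domains of 2L were the longest by mean, and those of 3R by median. Median lengths differed less, at 2500 bp on 2L, 3000 bp on 3R, 2000 bp on X and 1500 bp on 3L, while the median of the rest was 2000 bp on each arm.

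When each arm was divided into blocks of 2 Mb counted from the centromere-side end of the list, the first block had the highest share of domain sequence on 3 arms. It stood at 27.3% on 2L, where the 9 other blocks ran from 7.18% to 16.0%. On 3R it stood at 22.6%, with 12 other blocks between 5.95% and 16.7%. The margin was narrow on X, at 21.8% against a highest other block of 20.98%. The first block of 3L, at 10.1%, ranked 10 of 11 blocks. Domain counts gave the same first rank on 2L, 3R and X, with 101, 89 and 121 domains in the first block against highest counts elsewhere of 94, 87 and 117.

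**Figure D1:**
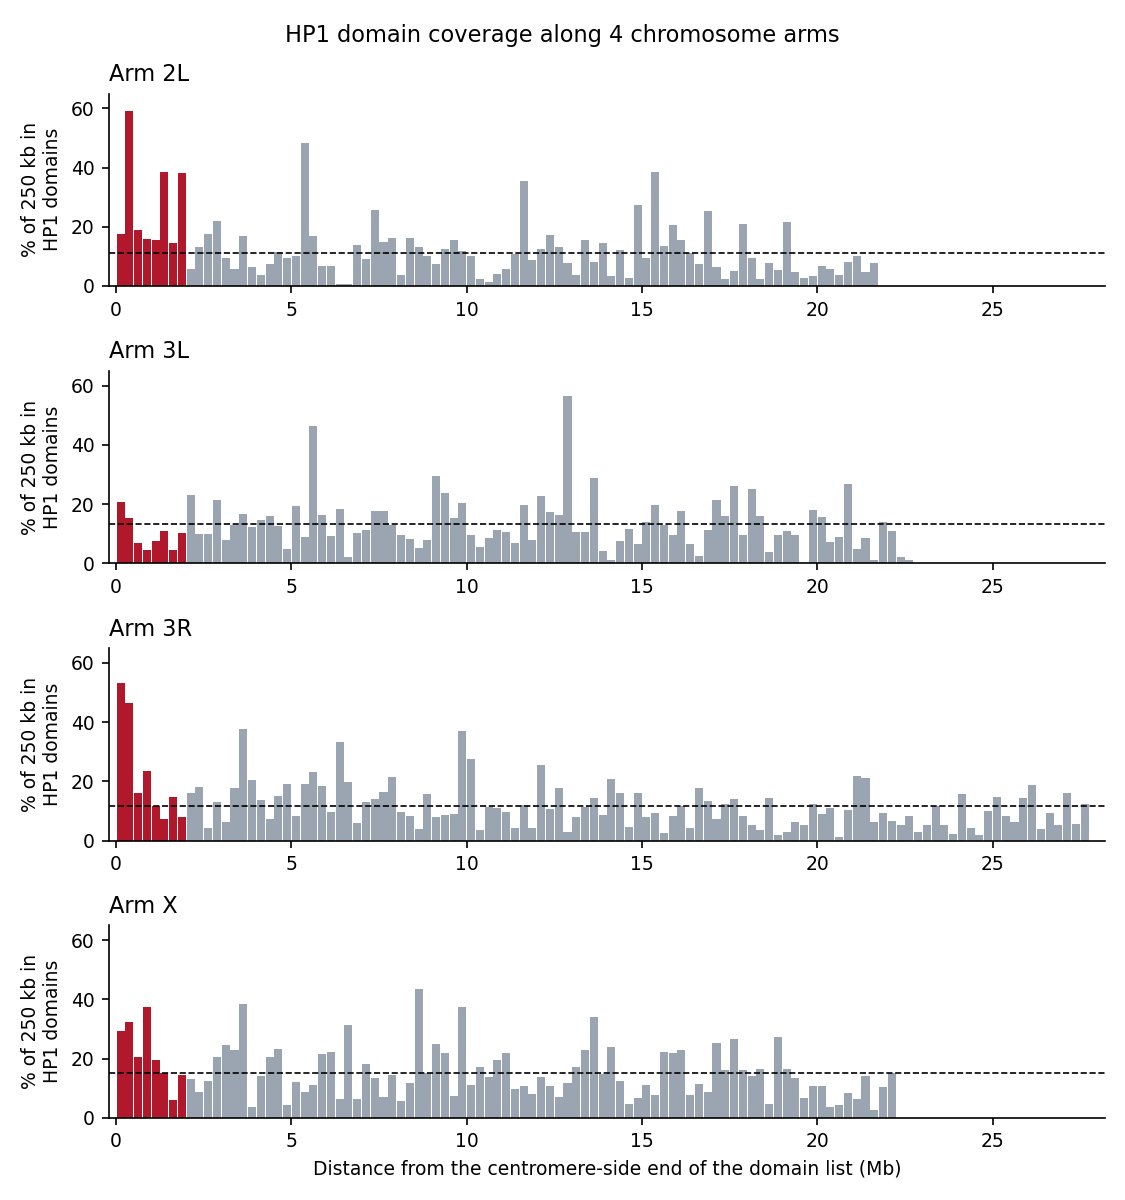
Share of each 250 kb step that lies in HP1 domains (vertical axis, percent), by distance from the centromere-side end of the domain list (horizontal axis, Mb), for 4 arms. Red bars are the first 8 steps, grey bars the rest of the arm, and the dashed line is the mean of the steps beyond 2 Mb; red bars stand well above the line near 0 on 3R and at 3 places on 2L, and mostly below it on 3L.

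Within the windows coverage was uneven. On 3R the 2 steps of 250 kb nearest the centromere were 53.2% and 46.6% covered, the highest and second highest of the 111 steps of that arm, where the steps beyond 2 Mb averaged 11.5% (SD 7.28 over 103 steps). From 500 kb to 2 Mb, 3R averaged 13.5%, within that SD of the rest of the arm. On X the nearest 2 steps were 29.2% and 32.2% covered and the fourth reached 37.4%, while steps beyond 2 Mb averaged 15.1% (SD 8.54 over 81 steps). Coverage on X fell to 6.0% in the seventh step, and the 4 outer steps, from 6.0% to 19.4%, lay within the range of the steps beyond 2 Mb. On 2L the step from 250 to 500 kb was 59.2% covered, the highest of 87 steps, and further steps of 38.6% and 38.0% lay at 1250 to 1500 kb and 1750 to 2000 kb, against a mean of 11.2% (SD 8.55 over 79 steps) beyond 2 Mb. All 8 steps of the 2L window lay above the median of the steps beyond it, and 7 of 8 did so on X, 6 of 8 on 3R and 2 of 8 on 3L. On 3L the nearest 2 steps were the highest of the window at 20.6% and 15.4%, with 4.6% to 11.0% in the other 6, where the arm beyond averaged 13.3% (SD 9.07 over 83 steps).

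Where the list ends differs between arms and bears on what proximal means. The innermost 3R domain began at position 1 and ran to 14000, and the innermost X domain ran from 22420001 to 22422500, so the list reaches the base of those assembled arms. On 2L the last domain ran from 21999501 to 22000500, and on 3L from 22886501 to 22900500. The dm3 assemblies of 2L and 3L continue beyond these positions toward the centromere, and domains there were not analysed here. Both windows therefore begin some distance from the end of the assembled arm, and these 2 arms had the highest (27.2% on 2L) and the lowest (10.1% on 3L) proximal coverage of the 4. The part of where the list ends in the differences between arms was not tested.

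Long domains carried much of the signal at the arm bases. Domains over 10 kb made up 33 of the 378 proximal domains (8.73%) and 190 of the 3341 others (5.69%), and their share was higher in the proximal group on all 4 arms: 8.91% against 6.15% on 2L, 7.46% against 5.56% on 3L, 10.1% against 5.53% on 3R, and 8.26% against 5.61% on X. The proximal shares rested on few domains: 9 on 2L, 5 on 3L, 9 on 3R and 10 on X. Together these 33 domains held 40.7% of the proximal domain sequence, while the 190 held 26.9% elsewhere. Of the 10 longest domains of the 4 arms, 5 were proximal, and of the 100 longest, 18 were. Over all lengths, 378 domains were proximal and 3341 were not. At the short end the groups were close: single bins of 500 bp were 72 of 378 domains (19.0%) and 595 of 3341 (17.8%). X accounted for that small excess, with 27.3% against 19.6%, while on 2L (12.9% against 15.7%), 3L (16.4% against 17.6%) and 3R (16.9% against 17.7%) single bins were slightly fewer. The upper tail separated the groups, with a 90th percentile of 9650 bp in the proximal windows and 7500 bp elsewhere.

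**Figure D2:**
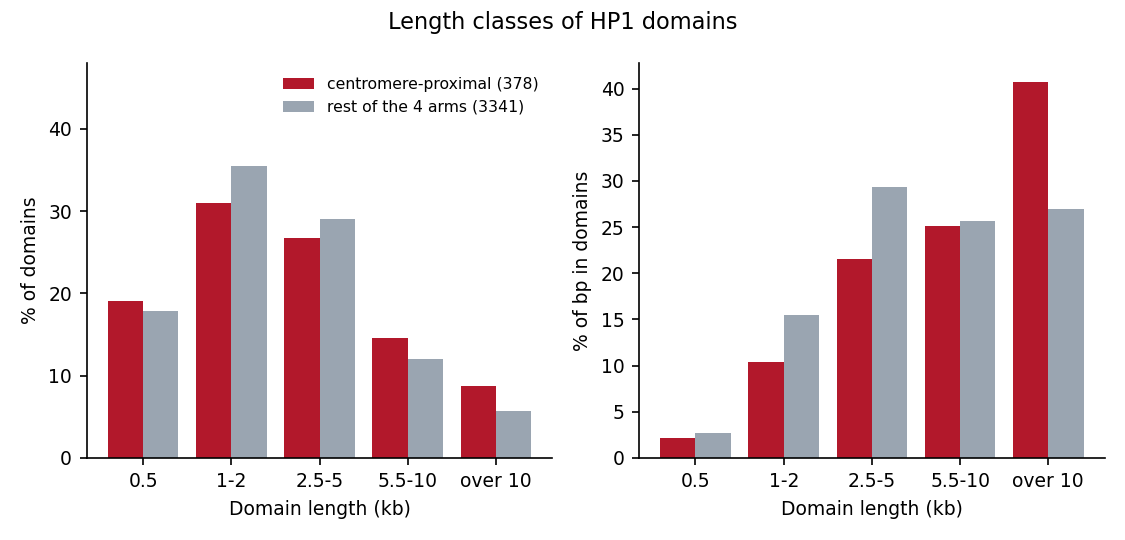
Domains by length class (horizontal axis, kb), as percent of domains on the left and percent of domain base pairs on the right, for the 378 centromere-proximal domains (red) and the 3341 domains of the rest of the 4 arms (grey). The class over 10 kb holds 8.73% and 5.69% of domains, and 40.7% and 26.9% of base pairs.

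The longest domain of the 4 arms lay at the base of 2L, from 21604501 to 21653500, and measured 49000 bp. It was followed toward the centromere by domains of 41500 bp (21698001 to 21739500) and 32500 bp (21759501 to 21792000). The first 2 lay in the step that was 59.2% covered and the last in the step next to the centromere. With gaps of up to 10000 bp closed, 6 domains there formed a block of 120000 bp from 21672001 to 21792000, of which 97000 bp was inside domains. The longest such block outside the windows was longer, at 225000 bp on 3L (17122001 to 17347000). It joined 21 domains and had 133500 bp inside them. Without joining, the longest domain in the rest of 2L measured 26500 bp (6531501 to 6558000).

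On 3R the 3 longest proximal domains measured 35500 bp (102501 to 138000), 32500 bp (390501 to 423000) and 27000 bp (165501 to 192500). All 3 lay within 500 kb of the centromere-side end. After joining domains separated by at most 1000 bp, 4 of them formed a span of 53000 bp from 387001 to 440000. Joined in the same way, the longest span outside the windows of the 4 arms was 61000 bp. Without joining, the longest domain in the rest of 3R measured 37500 bp (10157001 to 10194500), somewhat longer than the longest proximal one.

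On X the longest proximal domain measured 35000 bp (22103501 to 22138500), followed by 21500 bp (22263001 to 22284500) and 18000 bp (21381001 to 21399000). The longest domain elsewhere on X was longer, at 43500 bp (15834501 to 15878000). On 3L the proximal domains were short: the longest measured 14000 bp (22886501 to 22900500), then 13500 bp (22575501 to 22589000) and 12500 bp (21426001 to 21438500). The rest of 3L held a domain of 44000 bp (17251001 to 17295000). A gene annotation of dm3 was not used here, so no domain is assigned to a gene, exon, intron or repeat.

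**Figure D3:**
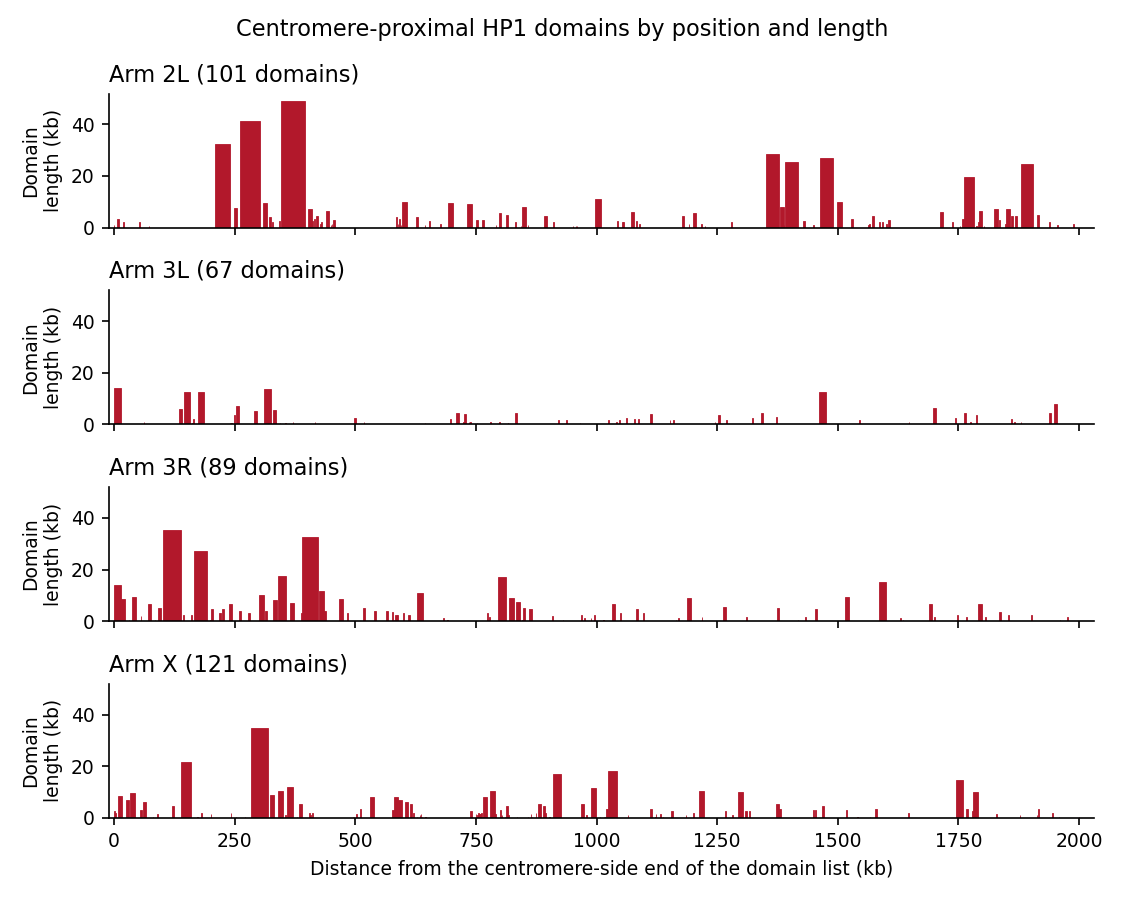
Each of the 378 centromere-proximal HP1 domains, drawn to scale as a red bar whose width and height are its length (vertical axis, kb), by distance from the centromere-side end of the domain list (horizontal axis, kb). The tallest bars are the 49000 bp domain of 2L, the 35500 bp domain of 3R and the 35000 bp domain of X, all within 500 kb, and no bar on 3L exceeds 14000 bp.

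Spacing followed density. The median gap between neighbouring domains was 7000 bp in the 2L window against 15250 bp in the rest of 2L, 11500 bp against 14500 bp on 3R, and 6250 bp against 9000 bp on X. On 3L the proximal gaps were wider, at 14250 bp against 10500 bp. Gaps of at most 1000 bp made up 26.7% of gaps in the X window (15.5% in the rest of X) and 21.0% in the 2L window (12.3%), so that domains there were often split by 1 or 2 bins. On 3R the figures were 13.6% and 9.60%, and on 3L the order was again reversed, at 12.1% against 21.3%. Closing gaps of at most 5000 bp placed 33.1% of proximal domains in blocks of 3 or more, against 21.3% of the others.

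Long stretches free of domains remained close to the centromeres. The longest in the windows was 135500 bp on 2L (21792001 to 21927500), which began where the 32500 bp domain ended, and the next on that arm was 124500 bp (21417001 to 21541500). On 3L the longest was 125500 bp (22256501 to 22382000), on X 97000 bp (20677501 to 20774500) and on 3R 80500 bp (691501 to 772000). Gaps over 50 kb numbered 14 in the 3L window, or 7.16 per Mb, against 5.22 per Mb in the rest of 3L. They were scarcer at the base of the other arms than in the rest of each: 3.02 against 4.93 per Mb on 2L, 3.54 against 5.42 on 3R and 3.0 against 4.12 on X. A stretch with no domain can be one where HP1 was not enriched or one where reads could not be placed, and the positions alone do not tell these apart.

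The window edges cut no domain. Just inside the edge lay domains of 1500 bp on 2L, 8000 bp on 3L, 1500 bp on 3R and 500 bp on X, and just outside lay domains of 2500 bp, 7000 bp, 2000 bp and 1000 bp.

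Transcripts from genes at the arm bases were followed in the RNA libraries. Since the gene positions used here are of Release 6 and the domains of dm3, genes were taken by order alone: the 100 genes nearest the centromere on each of the 4 arms among those in the count tables. Such a gene is not thereby placed in or beside a domain. Where the assembled arm continues past the last listed domain, the nearest genes can lie beyond the domain window. The genes and the domain windows are therefore not the same stretches, and their overlap was not tested. Of these 400 genes, 270 passed the filter on low counts. The gene of HP1a was checked first, at 253 and 229 CPM (scaled counts per 1000000) in the controls and 224 and 236 CPM in the HP1-SKD libraries. The groups overlapped, with a log2 fold change (HP1-SKD minus control) of -0.06 (SE 0.11, adjusted p = 0.677 with edgeR's quasi-likelihood test), and that gene's fall was not seen in whole-ovary RNA.

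Among the 270 tested centromere-most genes, 53 were higher (19.6%) and 32 lower (11.9%) in HP1-SKD at an adjusted p under 0.05 with edgeR's quasi-likelihood test. Over all 8798 tested genes 11.8% were higher and 16.1% lower (27.9% in all). The median log2 fold change was 0.08, against 0.02 over all tested genes. Higher calls were most frequent on 2L, with 26 of 72 (36.1%) and a median of 0.59, while 10 of 58 (17.2%) were higher on 3L, 10 of 68 (14.7%) on 3R and 7 of 72 (9.72%) on X. Lower calls were 8, 8, 7 and 9 on 2L, 3L, 3R and X. With library size alone as the scale the split was 93 higher (34.4%) and 18 lower (6.67%), against 29.3% and 11.8% of all tested genes. With limma-trend on TPM it was 148 (54.8%) and 12 (4.44%), against 50.1% and 7.55%. The median of all tested genes was itself 0.25 and 0.50 in these 2 fits. Without HP1-SKD 1 the calls were 5 higher and 3 lower, without HP1-SKD 2 they were 6 and 5, and without control 2 they were 102 and 48.

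The 2L genes included a block of core and linker histone gene copies, which encode the proteins that package DNA and lie in a tandem repeat at the base of that arm. The list held 31 such copies, all on 2L. Of 26 tested, 11 were higher and 1 lower, with a median log2 fold change of 2.45 that stayed positive under each scale tried. The lower copy was His3:CG33818, at a log2 fold change of -7.80 (adjusted p = 0.0241 with edgeR). The largest rise among the copies was 8.14, for His2B:CG17949. Higher calls among the copies fell to 5 without HP1-SKD 1 or without HP1-SKD 2, and were 18 without control 1, 25 without control 2, 22 with the replicate block and 21 with limma-trend on TPM, with medians of 1.55 to 3.62 when 1 library was left out. Their summed level was 319.7 and 768 CPM in the controls and 1752 and 1533 CPM in HP1-SKD, so that the groups did not overlap and the controls differed from each other more than the HP1-SKD libraries did. His1:CG33837, a linker histone copy, went from 5.63 and 8.93 CPM to a mean of 61.0 CPM (SD 5.12, n = 2), with a log2 fold change of 3.06 (SE 0.26, adjusted p = 0.0217 with edgeR). His4:CG31611 stood at 13.8 and 32.3 CPM in the controls and at a mean of 149 CPM (SD 32.1, n = 2) in HP1-SKD, a log2 fold change of 2.69 (SE 0.43). His1:CG31617 (2.87) and His1:CG33816 (2.57) rose as well. His2B:CG33890 had 0 and 23 counts in the controls and 663 and 821 in HP1-SKD, and His2B:CG17949 had 0 and 1 against 231 and 246. His1:CG33816 did not pass without HP1-SKD 2 (adjusted p = 0.0754 with edgeR), and His2B:CG33890 did not pass without HP1-SKD 1 (0.0520) or with DESeq2 (0.0577). Reads can be shared among such nearly identical copies, which makes single-copy values uncertain, and poly(A)+ RNA leaves out most histone mRNA, which normally lacks a poly(A) tail.

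Without the histone copies, 42 of 244 centromere-most genes were higher (17.2%) and 31 lower (12.7%), with a median of 0.02. On 2L, 15 of 46 were higher (32.6%) and 7 lower (15.2%), so that the share of higher calls stayed near that with the copies while the median was 0.01. Of the genes on the other 3 arms together, 27 of 198 were higher and 24 lower. The shares higher were 17.2% on 3L, 14.7% on 3R and 9.72% on X, on both sides of the 11.8% of all tested genes. The shares lower were 13.8%, 10.3% and 12.5% in the same order, each below the 16.1% of all tested genes. None of the 15 and 7 passed without HP1-SKD 1 or without HP1-SKD 2. In order from the centromere, the 25 nearest genes of each arm gave 13 higher and 11 lower of 78 tested, and those from 76 to 100 gave 7 and 6 of 46.

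**Figure D4:**
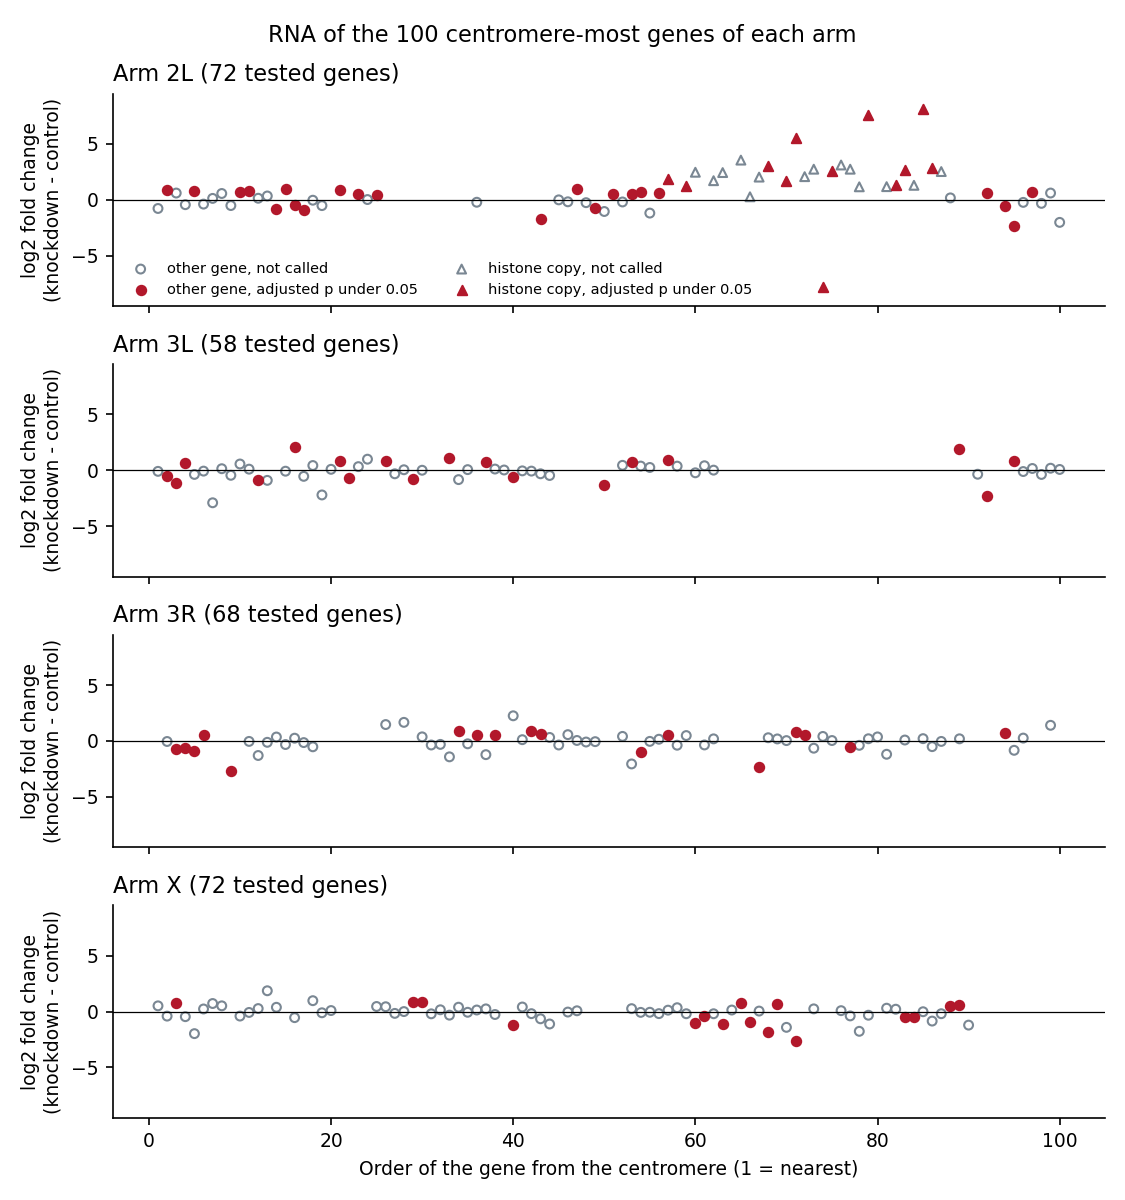
Log2 fold change between HP1-SKD and control (vertical axis) for each tested gene among the 100 nearest the centromere (horizontal axis, order of the gene), by arm. Filled red symbols passed an adjusted p of 0.05 and triangles are core and linker histone copies; most triangles on 2L lie above 0, while the other genes of all 4 arms lie on both sides of 0.

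Among single genes at the arm bases, rises were mostly under 2-fold outside the histone copies and several falls were larger. On 2L, cta, a G protein alpha subunit gene used in gastrulation, stood at 46.6 and 61.5 CPM in the controls and 94.5 and 95.8 CPM in HP1-SKD (log2 fold change 0.82, SE 0.16, adjusted p = 0.0301 with edgeR). Its neighbour in the deep 2L heterochromatin, lt, which encodes a vesicle-tethering protein, stood at 49.4 and 49.7 CPM against 56.3 and 51.8 CPM (0.12, SE 0.12, adjusted p = 0.466). The difference between these 2 genes was not tested, and with limma-trend on TPM both were called higher (1.39 and 0.70), where the median of all tested genes was 0.50. The cell cycle repressor gene E2f2, of the same arm but beyond the nearest 100, rose to a mean of 102 CPM (SD 0.391, n = 2) from 53.3 and 69.0 CPM (log2 fold change 0.74, SE 0.16).

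Both ribosomal protein genes on the list of basal genes fell. RpL15 on 3L went from 2074 and 1701 CPM to a mean of 890.0 CPM (SD 4.43, n = 2), a log2 fold change of -1.08 (SE 0.16, adjusted p = 0.0233 with edgeR). RpL5 on 2L went from 2836 and 2306 CPM to 1443 and 1392 CPM (-0.86, SE 0.17). The groups did not overlap for either gene, but non-overlap held for 77.0% of all tested genes. Among the centromere-most genes, RpL21 on 2L (-0.90) and RpL10 on 3L (-0.76) were called lower as well. These 2 were not on that list and were named after their values were seen. A link of these falls to position on the arm was not tested.

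Genes of 3L moved both ways. The cohesin subunit gene vtd rose from 48.2 and 66.9 CPM to 89.0 and 94.6 CPM (0.67, SE 0.18, adjusted p = 0.0493 with edgeR), and Ten-m, a synaptic partner-matching receptor gene, rose by a log2 fold change of 0.85 (SE 0.14). Dbp80, an RNA helicase gene, fell (-0.53, SE 0.14), and the zinc-finger gene jim fell from 114 and 101 CPM to 44.1 and 41.6 CPM (-1.33, SE 0.13). The lipid phosphatase gene laza fell from 46.1 and 41.4 CPM to 8.18 and 10.2 CPM (-2.25, SE 0.18). CG40470 rose from 9 and 25 counts to 79 and 145 (log2 fold change 2.09, SE 0.56) and CG11426 from 22 and 22 to 117 and 123 (1.94, SE 0.48), though neither rise passed without HP1-SKD 1, without HP1-SKD 2 or without control 1, and the second did not pass without control 2 either.

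Among called centromere-most genes with at least 50 counts on average and no overlap between groups, CG12581 on 3R had the largest fall. This gene, ninth from the centromere, went from 93.9 and 61.9 CPM to 11.1 and 13.7 CPM (log2 fold change -2.65, SE 0.26, adjusted p = 0.0217 with edgeR). It passed without each library in turn, as did laza, jim, His1:CG33837, His1:CG31617 and His4:CG31611. None of cta, E2f2, RpL5, RpL15, vtd, Ten-m, Dbp80, tsh and tty passed without HP1-SKD 1 or without HP1-SKD 2, with log2 fold changes of the same sign in each case. On X, CG1801 (-1.86), DIP1 (-1.20), which encodes a double-stranded RNA binding protein, and tty (-1.10) fell, the first 2 not without HP1-SKD 1. The homeotic regulator tsh on 2L fell from 11.7 and 7.55 CPM to a mean of 2.91 CPM (SD 0.885, n = 2). Of 24 genes listed from general knowledge of the basal cytological divisions, 20 were matched by symbol and 17 tested. Of these, 4 were higher (cta, E2f2, vtd and Ten-m) and 4 lower (tsh, RpL5, RpL15 and Dbp80), with a median of 0.09. Over all tested genes 11.8% were higher and 16.1% lower, and a difference of this short list from those shares was not tested. The X members su(f), fog, stnB, shakB and slgA did not pass, at log2 fold changes of -0.73 to 0.38, and neither did corto on 3R (0.51, adjusted p = 0.0534), cad (0.58) or tio (-0.22). With limma-trend on TPM, RpL5 (-0.32), tty (-0.48), tsh (-0.67) and Dbp80 were not called, and Dbp80 was not with library size alone (-0.30) either. Both corto and cad passed with library size alone (0.75 and 0.82), with the replicate block (0.52 and 0.61) with DESeq2 (0.50 and 0.58) and with limma-trend on TPM (1.09 and 1.14). Without control 2, su(f) (-0.45) and shakB (-1.09) passed as lower, and corto (0.73) and cad (0.96) as higher. The X genes fog and slgA passed as higher with limma-trend alone (0.60 and 0.45), as did the gene of HP1a (0.46, adjusted p = 0.0123 with limma), near the median of 0.50 of all tested genes in that fit.

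Summed RNA levels of follicle cell and hemocyte markers differed between the groups. Follicle cell markers summed to 147 and 94.6 TPM (transcripts per 1000000) in the controls and 57.4 and 49.9 TPM in HP1-SKD, with 3 of 4 lower (tj, slbo and eya, not Fas3), and the part of this in the results above was not tested. In bulk RNA, fewer cells of a type and less RNA per cell cannot be told apart. Germline markers, 3 matched of 5 listed, summed to 894 to 1101 TPM over all 4 libraries, with bam called higher. In the edgeR fit osk (log2 fold change -0.58) and orb (-0.43) were lower but not called. On the TPM scale the median log2 fold change of all tested genes was itself 0.50 with limma-trend. Hemocyte markers summed to 19.6 and 24.0 TPM in the controls and 39.8 and 32.1 TPM in HP1-SKD, with Pxn called higher. Hml and NimC1 were higher but not called, while srp went the other way (-0.93, SE 0.30, not called). Sheath muscle markers summed to 606 to 1002 TPM with none called, and fat body and gut markers to at most 3.0 TPM. No matched marker was at 0 in all 4 libraries, and markers that were not matched by symbol were not analysed here. The line crossed to tj-Gal4 also differs between the groups, so its effect cannot be told apart from that of the knockdown.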

How the data were processed

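Domains were read from the authors' deposited list, whose track line names a hidden Markov model; how replicates were combined is not given in the sources used here. Bowtie2 and HTSeq with dm3 and BDGP5, and Salmon, HISAT2 and DESeq2 for RNA, are named in the submitters' processing notes, without versions. Positions are printed counted from 1. Members were taken by position, and coverage is the base pairs in domains over the window length. The deposited expected counts, per the file headers estimated reads per gene, were rounded and compared in edgeR 4.0.16 (R 4.3.3) with filterByExpr, TMM and the quasi-likelihood F test over 8798 of 13776 genes, adjusted by Benjamini-Hochberg at 0.05. The deposited TPM values entered limma-trend 3.58.1 as log2(TPM + 1) and the marker sums. DESeq2 1.42.0 was an alternative. The labels call the samples biological replicates without naming separate crosses, so p-values measure the spread between 2 libraries a group. SEs were obtained from the F statistic as the size of the log2 fold change over the root of F. Gene order came from RefSeq's Release 6 table, matched by symbol (10631 genes on the 4 arms). Named genes are that of HP1a, then among the 400 the 8 strongest rises and 8 strongest falls past the threshold with at least 50 counts on average and no overlap between groups, and a fixed list of basal genes; for domains, the 3 longest in each window and the longest elsewhere. Members and lists were chosen with earlier results of these data known.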

Additional observations from a re-analysis of the deposited data

How the results depend on the processing

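Pooled over arms, the differences in domain density, coverage and gap kept their direction, and the median length was never lower than elsewhere. This held with edges moved 250 kb either way, with the nearest 2 Mb and with single bins left out. It also held with gaps of at most 1000 bp joined and without each arm. On 3L alone, density, coverage and median length were lower and gaps wider than in the rest of the arm. The difference in coverage was 4.88 points without 2L and 11.2 without 3L; that in single bins turned to -1.90 points without X. Calls over all tested genes (1040 higher, 1415 lower) were 2576 higher with library size alone, 1591 with DESeq2, 4406 higher and 664 lower with limma-trend on TPM, and 29 to 2540 higher and 191 to 2003 lower when 1 library was left out. Centromere-most calls (53 and 32) were 93 and 18 with library size alone, 148 and 12 with limma-trend, 24 and 17 with 50 genes per arm, 81 and 74 with 200, and 5 to 102 and 3 to 48 when 1 library was left out, a fit in which the lone library is assumed to vary like the other group. The replicate number as a block gave 1834 higher over all tested genes and 81 among the centromere-most; deviations of same-numbered libraries correlated at 0.503, but the labels do not pair them. The cause was not tested for any of these. Without the histone copies, an alternative chosen after seeing the data, the calls were 42 and 31 (17.2% and 12.7%). The shares higher and lower were 16.7% and 11.8% with 50 genes per arm, and 15.4% and 14.1% with 200. Over all tested genes they were 11.8% and 16.1%. Among single genes not called with edgeR, signs turned for tio (0.014 with library size alone, 0.067 with limma-trend, -0.57 to 0.31 with 1 library left out), su(f) (0.14 with limma-trend), slgA (0.17, 0.45 and -0.15 to 0.090 likewise) and the gene of HP1a (0.17, 0.46 and -0.093 to 0.016 likewise), where the median of all tested genes was 0.25 with library size alone and 0.50 with limma-trend, which called slgA and the gene of HP1a higher. The domain list gives no read depth, so its precision is unknown.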

Other observations

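A cluster of long domains also stood in the outer part of the 2L window. The steps from 1250 to 1500 kb and from 1750 to 2000 kb held 8 and 19 domains at similar coverage (38.6% and 38.0%). The first held domains of 28500, 27000 and 25500 bp, and the second held domains of 24500 and 19500 bp among shorter ones. The X step from 750 to 1000 kb held 31 domains at 37.4% coverage.

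Genes named here were chosen after their values were seen. Clamp, a zinc-finger gene of 2L whose product binds the histone gene repeat, stood at 73.1 and 107 CPM in the controls and 165 and 169.9 CPM in HP1-SKD (log2 fold change 0.89, SE 0.20, adjusted p = 0.0348 with edgeR). AGO3, a piRNA-pathway Argonaute gene of 3L, went from 60.5 and 66.1 CPM to 119.5 and 104 CPM (0.82, SE 0.13). Df31, a chromatin decondensation factor gene of 2L, went from 1315 and 1322 CPM to 1874 and 1942 CPM (0.53, SE 0.14). None of the 3 passed without HP1-SKD 1 or without HP1-SKD 2.

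At the opposite end of each arm, the 250 kb step farthest from the centromere was 7.6% covered on 2L, 1.2% on 3L, 12.2% on 3R and 15.2% on X.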
